A study of Mus musculus with 2 samples.

Results

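The tubulin isoforms described here are 10 mouse genes, 5 α-tubulins (Tuba1a, Tuba1b, Tuba1c, Tuba4a and Tuba8) and 5 β-tubulins (Tubb2a, Tubb2b, Tubb3, Tubb5 and Tubb6), out of 20282 genes with a symbol on the array. They were found as every noncontrol probe whose transcript accession belongs to one of these symbols, which gave 12 probes of 55676. Tubb2b and Tuba1b had 2 probes each, and the other 8 genes had 1.

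The study asked what loss of the clock gene Bmal1 in cardiomyocytes does to the heart, and compared RNA of the left ventricle between 2 genotypes on 1-color Agilent arrays. The H-Bmal1-/- mice carried a floxed Bmal1 gene together with a Cre transgene under the αMHC promoter, which is active in cardiomyocytes, so the other cells of the ventricle keep the gene. The controls were littermates with the floxed gene and no Cre, which the sample labels call wildtype. All animals were 12-week-old males whose hearts were taken at ZT 2, with ZT 0 as lights on. RNA of 6 animals per genotype was pooled and put on 1 array, so there are no replicates, no difference below could be tested, and each value compares a pair of pools. No control carried Cre alone, so the transgene and the loss of Bmal1 cannot be told apart.

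Microtubules are hollow polymers of α- and β-tubulin dimers. Several genes code for each subunit, and the isoforms differ mainly in the acidic tail at the end of the protein. Many of the enzymes that modify tubulin, though not all, act on this tail, and motors and other proteins bind to it. In cardiomyocytes microtubules carry cargo and resist shortening during contraction, and a denser network with more detyrosinated α-tubulin is known from overloaded and failing hearts.

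All 12 tubulin probes were well above background on both arrays. Levels and summed signals below are processed signals in arbitrary units, without scaling between the arrays. A log2 ratio is H-Bmal1-/- minus control after each array was scaled to its own 75th percentile of noncontrol spots. That percentile was 171 in the control and 190 in H-Bmal1-/-. The error given with a ratio is that of the scanner software's model of a single spot. It covers the measurement of that spot and not the spread between animals. Of 59305 noncontrol spots, 29288 in the control and 29672 in H-Bmal1-/- were well above background, and the 247 probes printed many times on each array differed between their own spots by a median SD of 0.07 in the log2 ratio. Arntl, the official symbol of Bmal1, read 513 in the control and 328 in H-Bmal1-/-, a log2 ratio of -0.80 ± 0.20 from 1 probe, and where that probe lies relative to the floxed part was not known.

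Of the 10 tubulin genes, 2 were at least 1.5-fold higher in the H-Bmal1-/- pool, Tubb2a and Tubb3, and none was at least 1.5-fold lower. Of all 13862 measured genes, meaning those with a probe well above background on at least 1 array, 6.17% were higher by 1.5-fold or more and 5.85% were lower by as much. At 2-fold the same 2 tubulins were higher and none lower, beside 2.42% and 2.06% of all measured genes. In total, 6 of the 10 had a ratio above 0, beside 48.4% of all measured genes. Their median log2 ratio was 0.25, against -0.01 for all measured genes, and 0.39 over 9 genes without Tubb2b, whose probes disagree. By probe, 3 of 12 were at least 1.5-fold higher and 1 was at least 1.5-fold lower, beside 5.91% and 7.56% of all 28429 measured probes. At 2-fold the same counts of tubulin probes stood beside 2.19% and 2.3%. A ratio above 0 was seen in 8 of the 12, beside 44.4% of all measured probes.

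**Figure D1:**
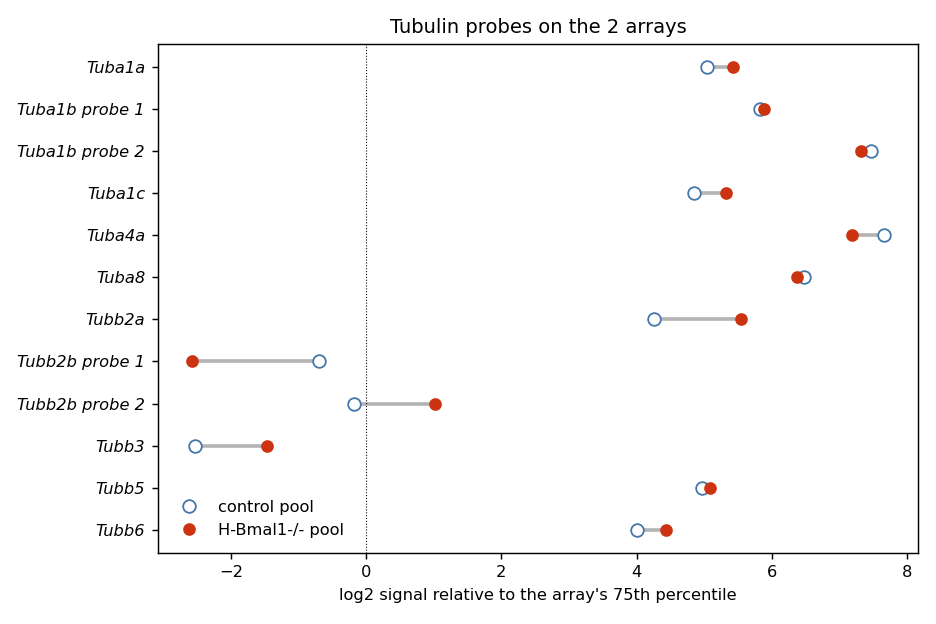
Level of each tubulin probe on the control and the H-Bmal1-/- array, as log2 signal relative to the array's 75th percentile, with 1 point per array. Tubb2a moved from 4.26 to 5.55, and the pair of Tubb2b probes moved in opposite directions, from -0.69 to -2.57 and from -0.18 to 1.02.

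Among the α-tubulins no gene was past 1.5-fold, and their log2 ratios ran from -0.47 to 0.48 with a median of -0.05. Tuba1a, a main isoform of the developing nervous system, had a signal of 5631 in the control and 8182 in H-Bmal1-/-, which gave a log2 ratio of 0.39 ± 0.20. Tuba1c, a broadly expressed isoform, had 4926 in the control and 7643 in H-Bmal1-/-, a log2 ratio of 0.48 ± 0.20. Both were higher in the H-Bmal1-/- pool, by 1.31-fold and 1.40-fold. Tuba4a, the isoform whose gene does not encode the final tyrosine found in most α-tubulins, had the opposite direction. Its signal was 34579 in the control and 27719 in H-Bmal1-/-, a log2 ratio of -0.47 ± 0.20, so that it was 1.39-fold lower. Of all measured genes, 8.84% had a lower ratio.

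The other α-tubulins were near 0. Tuba1b, a ubiquitous isoform, was read by a pair of probes. One had 9726 in the control and 11185 in H-Bmal1-/-, and the other had 30212 and 30303. After scaling their log2 ratios were 0.05 and -0.15, and the mean of -0.05 ± 0.14 lies within its error of 0. Tuba8, an isoform of heart, skeletal muscle and testis, had 15225 in the control and 15761 in H-Bmal1-/-, a log2 ratio of -0.10 ± 0.20. For Tuba1b and Tuba8 the direction turns if the arrays are not scaled, to 0.10 and 0.05.

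Among the β-tubulins the 4 genes other than Tubb2b were all above 0, with log2 ratios from 0.11 to 1.29. Their median was 0.75, and it was 0.44 over all 5. Tubb2a, a β-tubulin abundant in brain, had the highest ratio of the 10 genes. Its signal was 3279 in the control and 8883 in H-Bmal1-/-, 2.44-fold higher, with a log2 ratio of 1.29 ± 0.20. Of all measured genes, 97.6% had a lower ratio. Under the 12 alternative ways of processing the arrays it lay between 1.23 and 1.44 and past 1.5-fold each time. Only the other scalings and another background correction could move this single probe. The filters, the joining of probes, the authors' value table and the kept flags, described below, return its ratio by construction.

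Tubb2b lies near Tubb2a on chromosome 13, with 4930447K03Rik annotated between them, and its product is closely related to that of Tubb2a. Its 2 probes, both assigned to the same transcript accession, gave opposite readings. Probe A_51_P514256 had a signal of 106.0 in the control and 32.0 in H-Bmal1-/-, a log2 ratio of -1.88 ± 0.24 or 3.68-fold lower. Probe A_55_P2034864 had 152 in the control and 385 in H-Bmal1-/-, a log2 ratio of 1.19 ± 0.21 or 2.29-fold higher. Each stayed past 1.5-fold in its own direction under all 12 alternatives, though only the other scalings and background correction could move a single probe. The mean of the pair, -0.34 ± 0.16, therefore stands for neither, and no direction is given for the gene. Probes on both sides of 0 were common, in 1098 (31.0%) of the 3542 genes with more than 1 measured probe, but in only 24 of those genes did the log2 ratios of the probes lie as far apart as the 3.07 of Tubb2b or farther. The median distance was 0.16. Whether these probes or the single Tubb2a probe also bind the RNA of a related tubulin was not tested, and probe sequences were not used here.

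Tubb3, the isoform used as a marker of neurons, was dim. Its signal was 29.5 in the control and 68.4 in H-Bmal1-/-, 2.09-fold higher, with a log2 ratio of 1.06 ± 0.24. After the background was corrected in another way (normexp, with an offset of 50), this fell to 0.49 and below 1.5-fold, the only one of the 12 alternatives in which it did. As for Tubb2a, only the scalings and this correction could move it. Markers of neurons and Schwann cells did not move with it as a list. Of 13 such genes 7 were measured, 1 of them above 0, and their median was -0.26. Their summed signal was 10272 in the control and 10530 in H-Bmal1-/-, most of it from 1 bright gene. Prph, Elavl4, Syt1, Nefl and Nefm were among those not well above background on either array. Uchl1, an enzyme abundant in neurons, was the 1 marker above 0, with 86.7 in the control and 188 in H-Bmal1-/-, a log2 ratio of 0.96.

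Tubb6 and Tubb5 complete the β-tubulins. Tubb6, an isoform that is known to increase in injured and regenerating muscle, had 2745 in the control and 4124 in H-Bmal1-/-, a log2 ratio of 0.44 ± 0.20 or 1.35-fold higher. Tubb5, a ubiquitous isoform abundant in dividing cells, had 5372 in the control and 6427 in H-Bmal1-/-, a log2 ratio of 0.11 ± 0.20, which is within its error of 0.

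**Figure D2:**
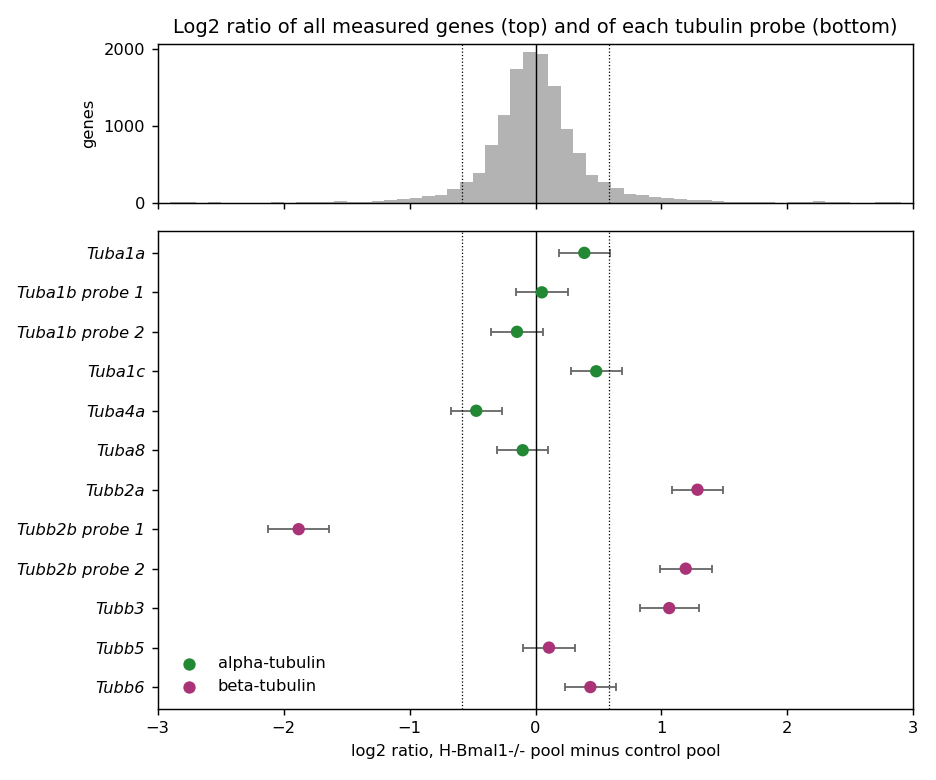
Log2 ratio (H-Bmal1-/- minus control) of each tubulin probe with the scanner software's spot error as the bar, beside the distribution over all 13862 measured genes, of which 118 lie beyond the axis limit of 3. Tubb2a at 1.29, Tubb3 at 1.06 and a Tubb2b probe at 1.19 lie to the right of the 1.5-fold line, and the other Tubb2b probe lies at -1.88.

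In order of their ratios the genes ran from Tubb2a and Tubb3 through Tuba1c, Tubb6, Tuba1a, Tubb5, Tuba1b and Tuba8 to Tuba4a, with Tubb2b set aside. Tubb2a and Tubb3 differed by less than the errors of their spots combined. So did Tuba1c, Tubb6 and Tuba1a, which lay between 0.39 and 0.48. Tuba4a was lower than Tuba8 by more than the error of either spot.

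The promoters of Tubb2a and Tubb3, the 2 genes past 1.5-fold, and of Tubb5 and Tuba8, the 2 members with an E-box, are printed because Bmal1 acts on genes by binding E-boxes together with Clock. Each is the 250 bases before the annotated start, 5′ to 3′ on the strand of the gene, from RefSeq (GRCm38.p6). RefSeq entries were found for 8 of the 10 members. Capitals mark the E-box CACGTG, the CCAAT box, which is CCAAT on one strand and reads as ATTGG from the other, the GC box, which is GGGCGG on one strand and reads as CCGCCC from the other, the TATA box TATAAA and the cAMP response element TGACGTCA. Each was searched on both strands, and no motif overlaps another in the printed bases. The printed bases lie at chr13:34078009-34078258 on the minus strand for Tubb2a, chr8:123411303-123411552 on the plus strand for Tubb3, chr17:35838302-35838551 on the minus strand for Tubb5 and chr6:121210484-121210733 on the plus strand for Tuba8.
Tubb2a: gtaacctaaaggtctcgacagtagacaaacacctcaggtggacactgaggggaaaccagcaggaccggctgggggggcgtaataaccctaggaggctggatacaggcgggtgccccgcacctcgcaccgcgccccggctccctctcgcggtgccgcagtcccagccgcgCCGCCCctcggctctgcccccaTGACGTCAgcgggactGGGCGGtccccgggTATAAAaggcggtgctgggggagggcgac
Tubb3: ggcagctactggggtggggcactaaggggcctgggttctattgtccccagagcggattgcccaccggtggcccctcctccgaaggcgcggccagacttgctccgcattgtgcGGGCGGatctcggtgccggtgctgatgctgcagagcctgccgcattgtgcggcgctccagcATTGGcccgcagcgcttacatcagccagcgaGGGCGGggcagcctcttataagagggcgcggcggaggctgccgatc
Tubb5: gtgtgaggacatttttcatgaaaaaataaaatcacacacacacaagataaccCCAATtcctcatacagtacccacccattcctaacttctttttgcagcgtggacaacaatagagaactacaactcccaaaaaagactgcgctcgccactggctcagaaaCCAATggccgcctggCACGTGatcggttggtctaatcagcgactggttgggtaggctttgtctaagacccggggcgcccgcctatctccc
Tuba8: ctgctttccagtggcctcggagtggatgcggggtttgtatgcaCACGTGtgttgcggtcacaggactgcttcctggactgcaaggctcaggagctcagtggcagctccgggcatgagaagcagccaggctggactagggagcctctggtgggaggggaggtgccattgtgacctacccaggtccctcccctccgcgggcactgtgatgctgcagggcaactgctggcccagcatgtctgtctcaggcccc

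Over windows from 250 bases before to 50 bases after the start, the E-box was present in 2 of the 8 tubulin promoters, at -207 in Tuba8 and at -75 in Tubb5, counted from the start site to the first base of the motif. The same letters were in 7.15% of all 32851 RefSeq promoters and in 7.84% of the 21263 promoters of protein-coding genes. Neither of these genes was past 1.5-fold, with log2 ratios of -0.10 and 0.11, and neither Tubb2a nor Tubb3 held the letters in this window. The upstream sequence of Tubb2a carried a TATA box at -29 and a cAMP response element at -59, and no other of the 8 promoters held either. TATAAA was in 13.6% and TGACGTCA in 1.79% of all promoters, and in 12.6% and 2.23% of those of protein-coding genes. TGACGTCA was searched only after the sequence of Tubb2a had been seen. A CCAAT box was found in 4 of 8, beside 37.4% of all promoters and 38.2% of those of protein-coding genes. A GC box was found in 6 of 8, beside 35.7% and 46.2%. Those of Tubb5 lie across and after the start and so are not among the printed bases. These matches describe letters in a window and were not tied to binding.

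Most of the other tubulins on the array were above 0 too. Of 10 genes in this list 8 were measured, 7 were above 0 and 2 were at least 1.5-fold higher, with a median log2 ratio of 0.31. The counts of this and each list below stand beside 48.4% of all measured genes above 0. By 1.5-fold or more, 6.17% of all measured genes were higher and 5.85% lower. Tubb4b, a β-tubulin abundant in cilia and many tissues, had 16985 in the control and 24860 in H-Bmal1-/-, a log2 ratio of 0.40. Tubg2, a γ-tubulin of the kind that seeds new microtubules, had 236 in the control and 396 in H-Bmal1-/-, a log2 ratio of 0.59, just past 1.5-fold. Tuba3a, an α-tubulin best known from testis, was close to background, with 14.2 in the control and 29.9 in H-Bmal1-/- and a log2 ratio of 1.04. These are means of 2 probes, whose log2 ratios were 0.64 and 1.44. Neither Tubg2 nor Tuba3a stayed past 1.5-fold after normexp, with 0.51 and 0.29. The remaining genes were Tuba3b at 0.32, Tubd1 at 0.30, Tubb4a at 0.13, Tube1 at 0.10 and Tubg1 at -0.03, while Tubal3 and Tubb1 were not well above background on either array. Tubg1 turned above 0 without scaling and with scaling to the spike-in probes.

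Proteins that fold tubulin or act on its modifications showed small differences. Of 13 measured folding cofactors and prefoldin subunits, which carry tubulin through folding and dimer assembly, 10 were above 0 and 1 was past 1.5-fold, with a median log2 ratio of 0.12. That gene was Tbcel, related to cofactor E, with 266 in the control and 413 in H-Bmal1-/- and a log2 ratio of 0.63. All 8 subunits of the chaperonin CCT were measured and none was past 1.5-fold, from Cct7 at -0.11 to Cct8 at 0.51. Of 7 measured enzymes of detyrosination, tyrosination and deglutamylation none was past 1.5-fold, and the median of -0.04 turned above 0 under 4 alternatives, reaching 0.11 without scaling, 0.09 after normexp, 0.02 after cyclic loess and 0.01 after quantile normalization. Vash1, which removes the final tyrosine, had -0.11, its partner Svbp had 0.26, and Ttl, the ligase that adds it back, had 0.10. Agtpbp1, a deglutamylase, was the lowest of these at -0.48, with 519 in the control and 406 in H-Bmal1-/- as means of its 3 probes. Agbl2, another deglutamylase, was the highest at 0.57, at least 1.48-fold, but was well above background in H-Bmal1-/- only, and it was past 1.5-fold under 4 of the other scalings.

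Of the 3 acetylation enzymes all were above 0 with a median of 0.27. Atat1, the α-tubulin acetyltransferase, had 26.2 in the control and 45.4 in H-Bmal1-/-, a log2 ratio of 0.62 that fell to 0.22 after normexp. The deacetylases Hdac6 and Sirt2 had 0.27 and 0.26. Among 9 measured polyglutamylases and glycylases, which add side chains to the tubulin tails, none was past 1.5-fold and the median was 0.01. The lowest, Ttll1, was again read in opposite directions by a pair of probes, at -1.46 and 0.33.

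Of 14 measured structural microtubule-associated proteins, which bind along the lattice, 7 were above 0 and 1 was past 1.5-fold. Map1a was that gene, with 20.2 in the control and 55.3 in H-Bmal1-/-, 2.46-fold higher, with a log2 ratio that fell to 0.49 after normexp. Mapt, which encodes tau, had a signal of 3705 in the control and 6018 in H-Bmal1-/- and a log2 ratio of 0.56 over 3 probes that lay between 0.50 and 0.60. Map4, a major microtubule-associated protein of muscle, had 4861 and 6349, a log2 ratio of 0.23. Of 11 measured plus-end and minus-end proteins 8 were above 0, with a median of 0.23. Mapre3, the end-binding protein EB3, had 1922 in the control and 3776 in H-Bmal1-/-, a log2 ratio of 0.82, and its relative Mapre1 had 0.53. Of 10 measured stathmins and severing enzymes, which sequester dimers or cut microtubules, 1 was past 1.5-fold, Fign, a severing enzyme, with 226 in the control and 144 in H-Bmal1-/- and a log2 ratio of -0.80.

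The γ-tubulin ring complex, which nucleates microtubules, had 10 measured genes, 4 of them above 0. Its subunits Tubgcp4 and Tubgcp6 were past 1.5-fold in opposite directions. Tubgcp4 had 55.7 in the control and 116 in H-Bmal1-/-, a log2 ratio of 0.90, and Tubgcp6 had 118 and 77.9, a log2 ratio of -0.76. Of 20 measured genes of the motors kinesin-1 and cytoplasmic dynein with dynactin, 18 were above 0 and 3 were past 1.5-fold, with a median of 0.19. All 3 were heavy chains of kinesin-1, the motor that carries cargo toward the plus end. Kif5b, the broadly expressed one, had 73.4 in the control and 171 in H-Bmal1-/-, a log2 ratio of 1.07, while Kif5c had 1.03 and Kif5a had 0.69. After normexp Kif5b stayed past 1.5-fold at 0.77, and Kif5c and Kif5a fell below it, each at 0.37.

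Across all 11 lists, 113 genes were measured, of which 78 (69.0%, beside 48.4% of all measured genes) were above 0. The 10 that were higher by 1.5-fold or more made up 8.85%, beside 6.17% of all measured genes, and the 2 that were lower by as much made up 1.77%, beside 5.85%, with a median log2 ratio of 0.12. Of these 12 genes only Mapre3 and Kif5b remained past 1.5-fold under all 12 alternatives. With no scaling every ratio was 0.15 higher, and the share of calls that were higher went from 51.3% to 71.7% over all measured genes.

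**Figure D3:**
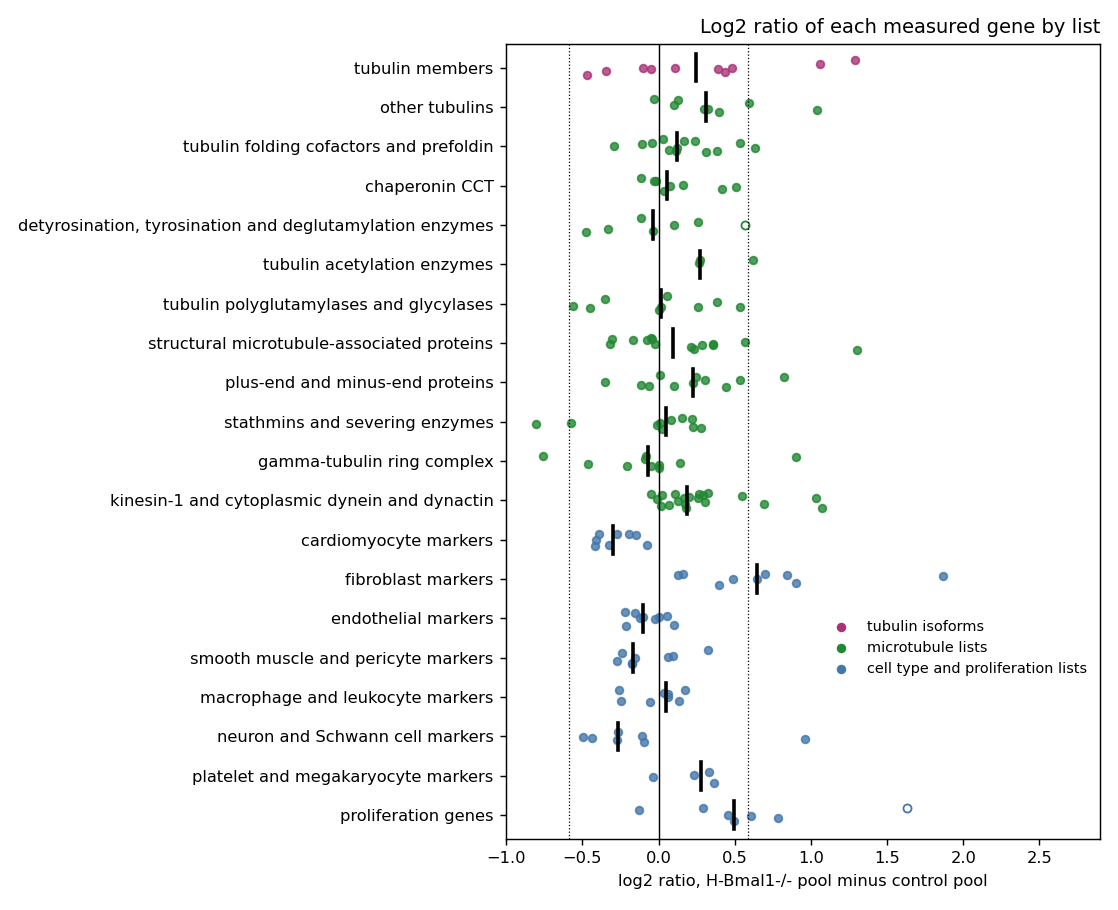
Log2 ratio (H-Bmal1-/- minus control) of each measured gene in the tubulin, microtubule, cell type and proliferation lists, with 1 point per gene, open points for genes well above background in H-Bmal1-/- only, black bars for medians and dotted lines at 1.5-fold. The tubulin median lies at 0.25, the fibroblast median at 0.64 and the cardiomyocyte median at -0.30.

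Lists of cell type markers differed between the pools as well. All 8 cardiomyocyte markers were well above background, so the tissue carried the genes that define it, and all 8 were below 0, from Tnni3 at -0.42 to Tnnt2 at -0.08, with a median of -0.30. Above 0 were 2 of them without scaling (median -0.15), 2 after normexp (-0.13) and 1 after quantile normalization (-0.16). Their summed signal was 1416523 in the control and 1363763 in H-Bmal1-/-. All 9 fibroblast markers were above 0 and 5 (55.6%, beside 6.17% of all measured genes) were at least 1.5-fold higher. They ran from Dpt at 0.13 to Postn, a matrix protein of activated fibroblasts, at 1.87, with a median of 0.64. Their summed signal was 51584 in the control and 85377 in H-Bmal1-/-, most of it from 1 bright gene. Of 10 proliferation genes 7 were measured, 6 were above 0 and 3 were at least 1.5-fold higher, with a median of 0.50 and summed signals of 2090 and 2365. Of those 3, 1 was well above background in H-Bmal1-/- only. With probes well above background on both arrays, 6 genes were measured and 1 was at least 1.5-fold higher. After normexp none was past 1.5-fold and the median was 0.28, and without scaling 5 were. Most of the summed signals of this list came from Pcna, its lowest gene at -0.13. Endothelial, smooth muscle and macrophage markers had medians of -0.10, -0.16 and 0.05, with no gene past 1.5-fold. Platelet markers had 0.28 over 4 measured genes, none past 1.5-fold, and 0.13 after normexp. They ran from Pf4 at -0.03 to Itga2b, which was dim, at 0.36. The part of these lists in the tubulin ratios was not tested. In RNA of whole ventricle, fewer cells of a type and less RNA per cell cannot be told apart.

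**Figure D4:**
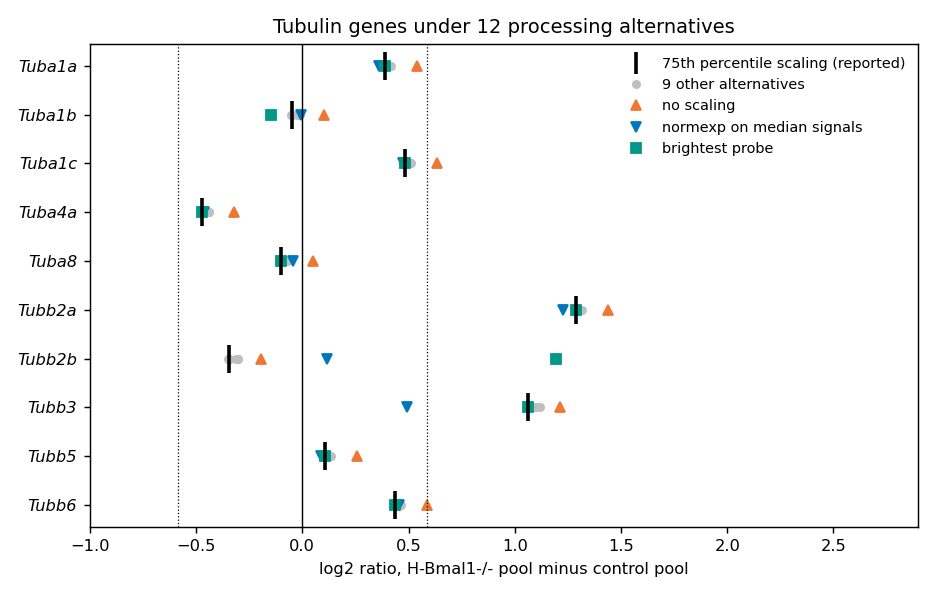
Log2 ratio (H-Bmal1-/- minus control) of each tubulin gene under the main processing and 12 alternatives, with 1 mark per setting. Tubb2a stays between 1.23 and 1.44, Tubb3 falls to 0.49 after normexp, and Tubb2b runs from -0.35 to 1.19.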

How the data were processed

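Left ventricular RNA of 6 mice per genotype was pooled and hybridized to 1 Agilent SurePrint G3 Mouse array per pool. The deposited intensities are the authors' Feature Extraction processed signals, background-subtracted, linear and without scaling between the arrays. The processing notes give Feature Extraction 10.5.1.1 and the scanner header 10.10.1.1. The value table deposited by the authors holds the same intensities at another scale per array, by a factor for which the sources used here give no rule. It served as an alternative.

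Control spots and 269 spots with an outlier flag were left out. The log2 of the signal minus the array's 75th percentile was averaged over spots, then over the probes of a gene well above background on at least 1 array. Accessions gave a symbol to 26759 of 55676 probes through a RefSeq table (GRCm38.p6) that gave names and neighbors only. A gene well above background on 1 array only was counted past 1.5-fold by its bound, the lowest signal well above background standing for the dim side. With 1 array per genotype no test was run, and a fold of 1.5 was used as the rule of size. The number of arrays limits the precision.

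The tubulins, the lists and the threshold were chosen with earlier results of these data known. Named genes are all members, the other tubulins, up to 3 highest and 3 lowest genes per microtubule list and those past 1.5-fold, the highest and lowest markers per cell type list, markers not above background and Arntl. Map4 and Agbl2 were added after their values were seen, and 1 marker gene is not reported here by name. The alternatives were 5 other scalings, normexp with an offset of 50 and quantile normalization in limma 3.58.1 (R 4.3.3), 2 filters on dim probes, 2 ways of joining probes, the value table and flagged spots kept. Scripts ran in Python 3.11.15 and were tested on simulated data.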

Additional observations from a re-analysis of the deposited data

How the results depend on the processing

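Of the 10 tubulin genes, 7 kept their direction under all 12 alternatives, and Tuba1b, Tuba8 and Tubb2b did not. Every tubulin probe was well above background on both arrays, so the filters, the value table and the kept flags could not move any member. The joining of probes could move only Tuba1b and Tubb2b. The count at least 1.5-fold higher was 2, and became 4 without scaling, where Tuba1c and Tubb6 were added at 0.63 and 0.59, and 1 after normexp, where Tubb3 was lost. With the brightest probe of each gene, Tubb2b was added to it. A threshold of 1.3-fold gave 5 higher and 1 lower, beside 11.5% and 11.8% of all measured genes. The median of 0.25 became 0.40 without scaling and 0.41 with the brightest probe of each gene, where Tubb2b stood at 1.19. It was 0.39 with Tubb2b left out, an alternative chosen after seeing the data. Over all measured genes, 855 were higher and 811 lower, against 1340 and 530 without scaling and 349 and 249 after normexp. In the microtubule lists together, 10 were higher and 2 lower, against 18 and 2 without scaling and 2 and 0 after normexp. Normexp with its offset draws the ratios of dim probes toward 0, and Tubb3, Tuba3a, Map1a, Atat1, Kif5a and Kif5c were all dim. Of the tubulin counts and medians, the other 49 values stayed within 1.5 times or within the spread between spots. Among values of single probes, genes and the other lists, 80 moved, and only part of these are given with the lists. After normexp the median of the plus-end and minus-end proteins fell from 0.23 to 0.09, and that of the other tubulins from 0.31 to 0.205. The median of the neuron and Schwann cell markers went from -0.26 to -0.13 after normexp. With all probes kept, the median of the polyglutamylases and glycylases went from 0.01 to -0.22.

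No paired analysis was possible because each genotype has 1 array, and leaving out a sample would leave nothing to compare. The protein comparison planned for the isoforms was not run.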

Other observations

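A probe of Tubb2a-ps2, a pseudogene of Tubb2a that is not among the 10 genes and was chosen after its values were seen, had a signal of 418 in the control and 778 in H-Bmal1-/-, a log2 ratio of 0.75 ± 0.20. Its direction was that of the Tubb2a probe and of Tubb2b probe A_55_P2034864. Across the array, 16 genes had one probe higher and another lower by 1.5-fold or more, as Tubb2b did, and 7 did so at 2-fold.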
